A study of Homo sapiens with 4 samples.

Results

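The genes described here are 10 secreted inflammatory mediators: the IL-6 family cytokines IL6, IL11 and LIF, the IL-1 cytokines IL1A and IL1B, the CXC chemokines CXCL1, CXCL2, CXCL3 and CXCL8, and the CC chemokine CCL2. They were chosen by name as a functional group, with earlier results of these data known. They were matched by Ensembl identifier to 10 of the 60721 genes in the deposited count table. The deposited log2 CPM table of 16137 genes holds 9 of them and has no entry for CXCL1. RNA abundance was measured by sequencing polyadenylated RNA from Hs578T cells, an established line from a human breast carcinoma. All cells received GFP. The control group received a non-targeting RNA (SCR) and the other group an siRNA against TLN1 (siTLN1), each at 1.6 µM, with RNA taken at 48 h from 2 biological replicates per group. TLN1 encodes talin-1, which couples integrins to actin. The comparison addresses which transcripts differ between siTLN1 and SCR cells. The groups differ in the RNA they received, so effects of talin-1 loss and of the siRNA itself cannot be told apart. The measurements are of RNA only, in 1 cell line and at 1 time, and secreted protein was not analysed here.

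Interleukins and chemokines are signalling proteins that cells release to act on neighbouring cells or on themselves. IL-1 binds its receptor and activates the NF-kB and AP-1 transcription factors, whose classical targets include IL6, CXCL8 and the IL1 genes themselves. IL-6, IL-11 and LIF signal through the shared receptor chain gp130 (IL6ST) to STAT3, and CXCL8 and its relatives draw neutrophils through CXCR1 and CXCR2. Mesenchymal-type breast carcinoma lines are known for releasing IL-6 and CXCL8. Their transcripts are short-lived, and AU-rich elements in the 3′ UTR are known to speed their decay.

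CXCL8, IL1B and IL6 fell in the siTLN1 libraries, to 43.2%, 47.4% and 64.0% of the SCR mean. IL11 lay higher and LIF differed little, and neither passed the test. IL1A, CCL2, CXCL2 and CXCL3 also did not pass, and CXCL1 was too scarce to test. Of the 9 tested genes, 3 passed an adjusted p of 0.05 and all 3 were lower, where 6.07% of all tested genes passed, 3.77% lower and 2.3% higher. With each library left out in turn, the log2 fold change of CXCL8 ran from -1.40 to -1.04 and that of IL1B from -1.27 to -0.89. For IL6 it ran from -0.86 to -0.45, weakest without siTLN1 library a, and for IL11 from 0.29 to 0.69. The log2 fold change was negative in 8 of the 9, with a median of -0.41 against 0.0033 over all tested genes, of which 49.4% were negative. The 2 libraries of a group did not overlap those of the other in 5 of the 9 genes, close to the 48.4% of all tested genes for which this held. In a bulk RNA sample, fewer cells making a transcript and less of it per cell cannot be told apart.

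The libraries held 31854322 to 46353297 counts assigned to genes, and they are called a and b in each group after numbers that recur in the count columns. TLN1 itself was at 868 and 874 CPM (counts scaled to library size) in the SCR libraries and at 51.9 and 44.8 CPM in the siTLN1 libraries, a log2 fold change of -4.17 (SE 0.11, adjusted p = 3.89e-13). Of 16137 genes tested, 980 passed, and 324 passed without siTLN1 library a. VIM, a mesenchymal intermediate filament gene, was at 3811 to 3968 CPM, while the luminal markers EPCAM and ESR1 were at 0.144 CPM or less in every library. Other luminal markers were detected, and GATA3 was at 9.75 and 10.5 CPM in SCR and 11.6 and 13.8 CPM in siTLN1 (log2 fold change 0.33, adjusted p = 0.161). The mesenchymal markers CDH2 (-0.89, adjusted p = 2.45e-05) and SPARC (-0.48, adjusted p = 0.0161) fell, and SPARC did not pass with any 1 library left out. These were the only calls among the 8 mesenchymal markers, of which 2 had a positive log2 fold change, with a median of -0.10. The 8 summed to 39080 and 36029 CPM in SCR and 43167 and 37490 CPM in siTLN1. Of the 12 leukocyte and macrophage markers, 6 had no count in any library, and the list summed to 11.4 and 11.3 CPM in SCR against 9.72 and 10.5 CPM in siTLN1. Most of that sum was CSF1R, at 9.37, 9.48, 8.19 and 8.72 CPM in SCR a, SCR b, siTLN1 a and siTLN1 b. The part of such cells in the results was not tested.

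NF-kB and AP-1, the factors that IL-1 signalling activates, are known to bind short elements near the start of their target genes. Promoters of 300 bases, from 250 before to 50 after the transcript start, were taken from the RefSeq table for GRCh38.p14, which held 8 of the 10 genes. They were searched on both strands for a kB-like word, GGNNTTTCC, and an AP-1-like word, TGANTCA. The kB-like word was present in 5 of the 8 (IL6, CXCL1, CXCL2, CXCL3 and CXCL8) and in 6.26% of 35116 promoters in the table. The AP-1-like word was present in 3 of the 8 (IL11, IL1A and CXCL8) and in 7.71% of promoters. The 150 bases just before the start are given 5′ to 3′ for 5 genes, with either word in capitals, to set the called genes beside genes that were not called or not tested. These lie at chr4:73740419-73740568 (CXCL8, plus strand), chr7:22727050-22727199 (IL6, plus strand), chr2:112836780-112836929 (IL1B, minus strand), chr19:55370464-55370613 (IL11, minus strand) and chr4:73869243-73869392 (CXCL1, plus strand).
CXCL8: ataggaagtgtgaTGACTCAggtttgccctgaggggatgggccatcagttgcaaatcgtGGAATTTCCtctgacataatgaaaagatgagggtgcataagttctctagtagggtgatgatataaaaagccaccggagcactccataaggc
IL6: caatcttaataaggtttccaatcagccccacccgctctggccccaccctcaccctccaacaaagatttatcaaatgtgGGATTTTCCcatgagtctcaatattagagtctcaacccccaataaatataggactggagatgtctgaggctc
IL1B: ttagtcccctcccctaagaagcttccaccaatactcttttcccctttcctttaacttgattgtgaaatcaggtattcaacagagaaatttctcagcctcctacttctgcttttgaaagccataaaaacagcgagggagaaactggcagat
IL11: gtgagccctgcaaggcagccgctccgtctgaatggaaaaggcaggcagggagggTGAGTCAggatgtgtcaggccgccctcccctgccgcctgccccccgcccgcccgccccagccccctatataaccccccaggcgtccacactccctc
CXCL1: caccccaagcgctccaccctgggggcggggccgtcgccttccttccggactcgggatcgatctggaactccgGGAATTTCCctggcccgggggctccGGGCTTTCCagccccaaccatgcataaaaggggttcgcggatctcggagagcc
CXCL8 holds both words, IL6 and CXCL1 hold kB-like words only, IL11 holds the AP-1-like word only, and the IL1B window holds neither. The kB-like word begins 91 bases before the start in CXCL8 and 72 before it in IL6. CXCL1 has a pair of copies, beginning 78 and 53 bases before its start, and CXCL2 and CXCL3 carry a pair at nearly the same places. A match describes letters and not binding, and no relation between the words and the fold changes was tested.

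**Figure D1:**
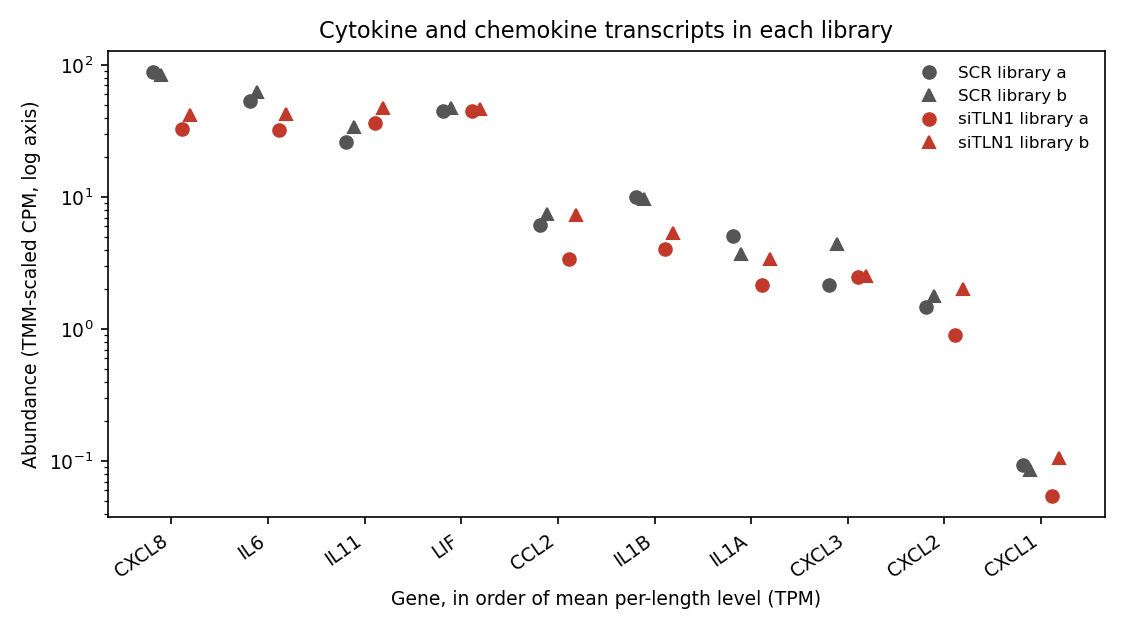
Abundance of the 10 genes in each library (CPM scaled by TMM, log axis), SCR in grey and siTLN1 in red, library a as circles and b as triangles. CXCL8, IL1B and IL6 have both siTLN1 libraries below both SCR libraries, IL11 has both above, and CXCL1 lies near 0.1 CPM.

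CXCL8 (interleukin-8), the main neutrophil-attracting chemokine, had the highest per-length level of the 10 in SCR cells and the most negative fold change of the 9 tested. Its gene lies at chr4:73740541-73743716 on the plus strand of GRCh38. It was at 88.6 and 83.7 CPM in SCR libraries a and b and at 32.5 and 41.9 CPM in siTLN1 libraries a and b, so every siTLN1 value was under every SCR value. The means were 86.2 ± 3.48 and 37.2 ± 6.62 CPM (SD, n = 2 each). Its log2 fold change was -1.21 (SE 0.12, 95% interval -1.46 to -0.96, adjusted p = 1.88e-05). With each library left out in turn it stayed between -1.40 and -1.04 and passed each time.

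The other ELR-positive CXC chemokines, which share the Glu-Leu-Arg motif before the first cysteines and the receptor CXCR2 with CXCL8, were far scarcer. CXCL3 (chr4:74036589-74038807, minus strand) was at 2.17 and 4.39 CPM in SCR and 2.47 and 2.51 CPM in siTLN1. The SCR libraries thus differed 2.02-fold, and both siTLN1 values lay between them. Its log2 fold change was -0.41 (95% interval -1.0 to 0.18, adjusted p = 0.454), and it moved to 0.20 without SCR library b and to -0.82 (adjusted p = 0.0129) without SCR library a. CXCL2 (chr4:74097040-74099196, minus strand) was at 1.48 and 1.78 CPM in SCR and 0.907 and 2.02 CPM in siTLN1, where the siTLN1 values enclosed the SCR values. Its log2 fold change was -0.11 (95% interval -0.81 to 0.59, adjusted p = 0.904), and it moved to 0.31 without siTLN1 library a and to -0.84 without siTLN1 library b. Neither interval excludes a fall as large as that of IL6.

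CXCL1 (chr4:73869393-73871308, plus strand) had raw counts of 3 and 3 in SCR and 2 and 5 in siTLN1. These lie at or near 3, the expected count that an observed 0 still allows, so no fold change is given. The coding sequences of CXCL1, CXCL2 and CXCL3 are 90.7% to 94.4% identical in pairs, against 47.6% to 50.6% with CXCL8. Reads that match more than 1 of these genes were not counted, so the levels of these 3 genes are uncertain in a way that those of CXCL8 are not. CXCL5, CXCL6 and PPBP, other chemokines of the same type, had no count in any library, and a count of 0 allows up to 3 counts a library.

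IL1B and IL1A, the secreted and the largely cell-associated ligand of the IL-1 receptor, lie near each other on chromosome 2, and only IL1B of the pair passed the test. IL1B (chr2:112829751-112836816, minus strand) was at 10.0 and 9.70 CPM in SCR and 4.07 and 5.30 CPM in siTLN1. The SCR libraries were nearly equal, and both siTLN1 libraries were well under them. The log2 fold change was -1.06 (SE 0.15, 95% interval -1.39 to -0.74, adjusted p = 0.000413), and with each library left out it stayed between -1.27 and -0.89 and passed each time. IL1A (chr2:112773925-112784493, minus strand) was at 5.03 and 3.68 CPM in SCR and 2.14 and 3.43 CPM in siTLN1. The groups did not overlap, but the highest siTLN1 value was close to the lowest SCR value. For IL1A the log2 fold change was -0.62 (SE 0.23, 95% interval -1.11 to -0.12, adjusted p = 0.146). It passed without SCR library b (-0.83, adjusted p = 0.00839) and without siTLN1 library b (-1.01, adjusted p = 0.0156). IL1RN, the natural receptor antagonist of IL-1, was at 4.34 and 4.39 CPM in SCR and 6.37 and 5.28 CPM in siTLN1 (log2 fold change 0.41, adjusted p = 0.157), and IL18 had at most 2 counts in a library.

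The 3 IL-6 family cytokines, which signal through the same gp130 chain, are given side by side, and the differences between them were not tested. IL6 (chr7:22725884-22732002, plus strand), an inducer of STAT3 signalling, was at 53.6 and 62.8 CPM in SCR and 31.9 and 42.6 CPM in siTLN1. Every siTLN1 value was under every SCR value, with means of 58.2 ± 6.5 and 37.3 ± 7.52 CPM (SD, n = 2 each). For IL6 the log2 fold change was -0.64 (SE 0.13, 95% interval -0.93 to -0.36, adjusted p = 0.0128). Without siTLN1 library a it was -0.45 (adjusted p = 0.131) and no longer passed. Of the exon bases of IL6, 20.7% overlap genes on the opposite strand (STEAP1B and IL6-AS1), and the counting did not use strand. Exon overlap with opposite-strand genes was 4.37% for LIF and 0 for the other 8. STEAP1B was at 9.91 to 10.7 CPM and IL6-AS1 at 2.66 to 3.89 CPM over the 4 libraries.

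IL11 (chr19:55364382-55370463, minus strand), a gp130 cytokine known to be induced by TGF-beta in carcinoma and stromal cells, was at 26.0 and 33.8 CPM in SCR and 36.4 and 47.2 CPM in siTLN1. Both siTLN1 libraries were above both SCR libraries, by a small margin between siTLN1 a and SCR b. The log2 fold change was 0.48 (SE 0.14, 95% interval 0.17 to 0.80), with an unadjusted p of 0.00571 and an adjusted p of 0.0721. It passed without SCR library b (0.69, adjusted p = 3.12e-05) and without siTLN1 library a (0.66, adjusted p = 0.0192), and also with DESeq2 (adjusted p = 0.0390) or with scaling by total counts alone (adjusted p = 0.0358). LIF (chr22:30240453-30246759, minus strand), known for keeping stem cells undifferentiated, was at 44.6 and 47.3 CPM in SCR and 44.9 and 46.5 CPM in siTLN1. The siTLN1 values lay inside the SCR range, and the 95% interval of the log2 fold change was -0.21 to 0.20 around -0.0069 (adjusted p = 0.983). The other tested gp130 ligands were not called: CLCF1 was at 17.4 to 22.3 CPM, while CTF1 and CNTF were at 1.10 to 2.45 CPM.

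CCL2 (MCP-1), the monocyte-attracting chemokine at chr17:34255218-34257203 on the plus strand, was at 6.20 and 7.38 CPM in SCR and 3.38 and 7.34 CPM in siTLN1. siTLN1 library a stood under the other 3 libraries, and library b was level with SCR library b. The log2 fold change was -0.32 (SE 0.33, 95% interval -1.12 to 0.49, adjusted p = 0.691). It was 0.11 without siTLN1 library a and -1.0 (adjusted p = 0.00338) without siTLN1 library b, so its value rests on which of these libraries is used.

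**Figure D2:**
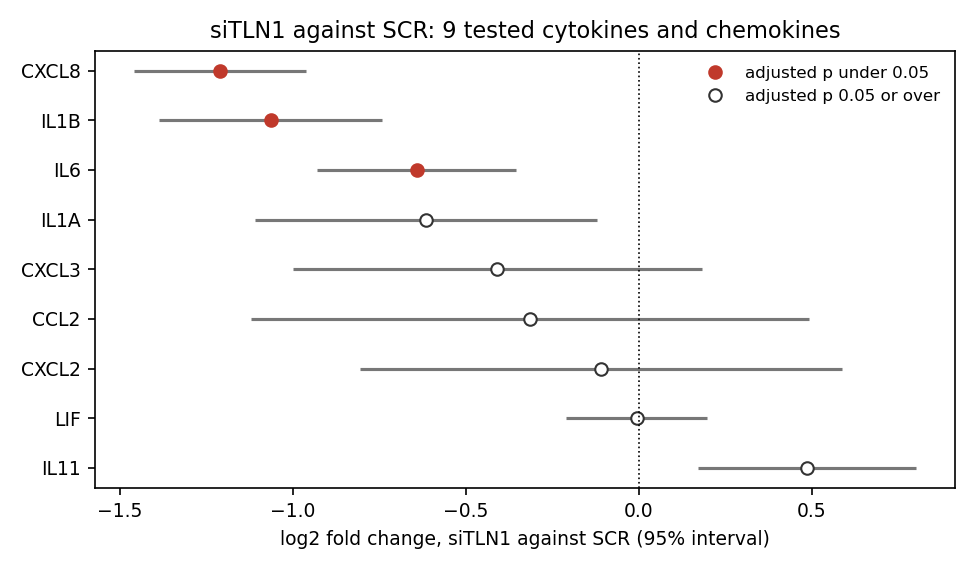
Log2 fold change of siTLN1 against SCR with its 95% interval for the 9 tested genes (edgeR quasi-likelihood fit over all genes, 2 libraries per group), filled where the adjusted p is under 0.05. CXCL8, IL1B and IL6 are filled with intervals wholly under 0, and LIF is centred near 0.

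**Figure D3:**
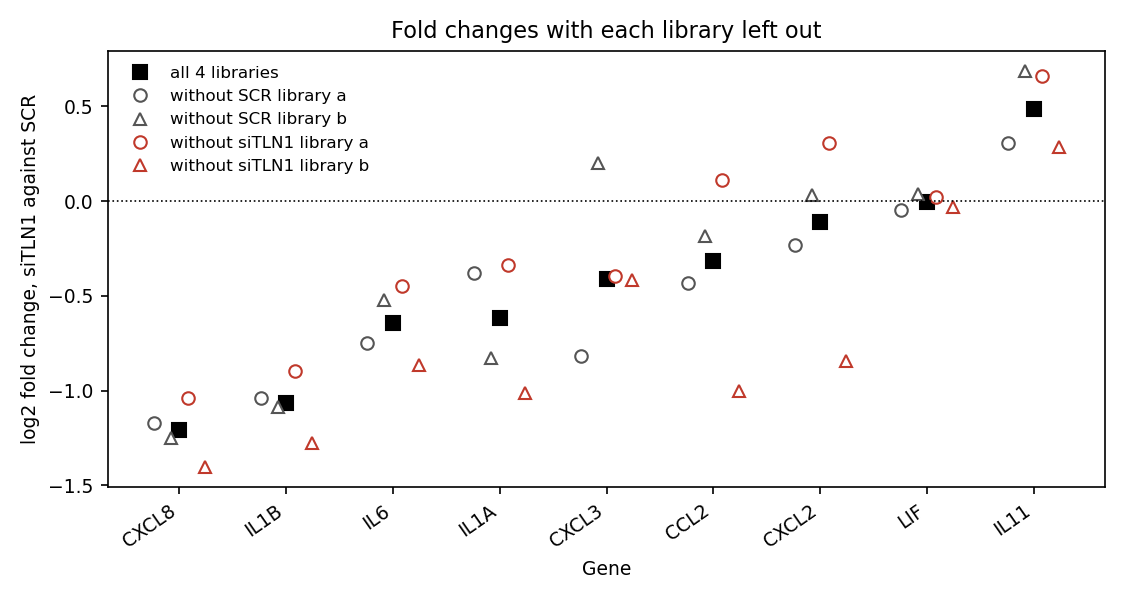
Log2 fold change of each tested gene with all 4 libraries (black squares) and with each library left out (open symbols, coloured by group). CXCL8, IL1B, IL6 and IL1A stay below 0 and IL11 above 0 in every fit, while CXCL3, CCL2, CXCL2 and LIF fall on either side.

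Within the siTLN1 group, library b was above library a in 10 of the 10 genes, against 50.4% of all tested genes, and in SCR library b was above a in 6 of the 10. The gap between the siTLN1 libraries was 2.23-fold for CXCL2, 2.17-fold for CCL2, 1.60-fold for IL1A and 1.29-fold for CXCL8. It was only 1.04-fold for LIF and 1.02-fold for CXCL3, and CXCL1 rests on 2 and 5 counts. The lower siTLN1 library was therefore the same one for every gene of the group, though by very little in LIF and CXCL3. The part of this in the differences between groups was not tested.

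Between genes, levels were compared per length, as TPM (counts scaled to exon length and library) from the lengths in the count table. Over the 4 libraries the order of mean TPM was CXCL8 (118), IL6 (98.5), IL11 (56.8), LIF (50.4), CCL2 (13), IL1B (10.4), IL1A (7.58), CXCL3 (5.53), CXCL2 (4.71) and CXCL1 (0.268). Only LIF and CCL2, and CXCL2 and CXCL1, were neighbours in this order whose ranges over the 4 libraries did not overlap. The order differed within groups: LIF (51.3 TPM) had a higher mean than IL11 (48.1 TPM) in SCR, and IL6 (75.5 TPM) a higher mean than CXCL8 (69.6 TPM) in siTLN1. Within SCR, CXCL8 (175 and 158 TPM) stood above IL6 (115 and 128 TPM), and IL6 above IL11 (42.9 and 53.4 TPM). Within siTLN1 these ranges ran into each other, at 60.4 and 78.9 TPM for CXCL8, 64.2 and 86.9 TPM for IL6 and 56.5 and 74.5 TPM for IL11. The group of 10 summed to 432 and 442 TPM in SCR and 254 and 332 TPM in siTLN1. CXCL8 made up 40.5% and 35.7% of that sum in SCR and 23.8% and 23.7% in siTLN1, and IL11 went from 9.92% and 12.1% to 22.2% and 22.4%. The share of IL6 was 26.5% and 29% in SCR and 25.3% and 26.1% in siTLN1. These shares describe the same counts as the tests above.

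**Figure D4:**
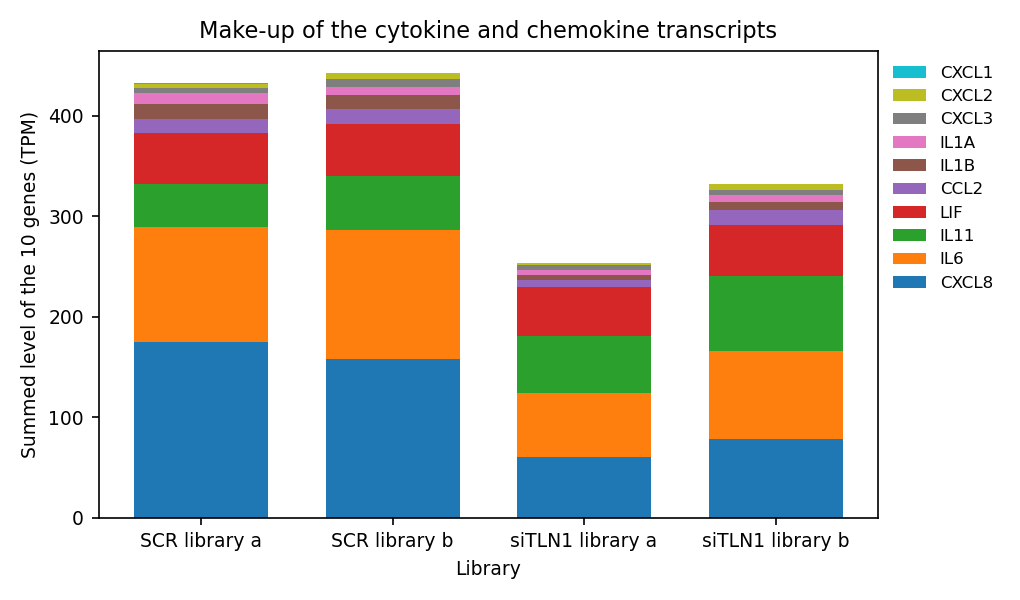
Summed TPM of the 10 genes in each library, stacked by gene. The SCR bars reach 432 and 442 TPM and the siTLN1 bars 254 and 332 TPM, and CXCL8 (lowest segment) makes up most of the difference in height.

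The genes whose profile over the 4 libraries lay nearest to that of CXCL8 were P4HA1, PGRMC1 and IL1B, at Euclidean distances of 0.131, 0.142 and 0.152 on centred log2 CPM among 10476 genes of at least 5 CPM. P4HA1, a collagen prolyl hydroxylase subunit, was at 126 and 129 CPM in SCR and 45.5 and 64.5 CPM in siTLN1. PGRMC1, a haem-binding membrane protein, was at 82.7 and 80.0 CPM in SCR and 34.6 and 41.3 CPM in siTLN1. As for CXCL8, siTLN1 library a was lowest and siTLN1 library b next. Among the 10 genes, the closest pairs were CXCL8 with IL1B and CXCL2 with CCL2 (0.195). These are likenesses over 4 libraries of 2 groups and carry no test.

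The receptors for these ligands, listed with related receptors, were in part well expressed and in part missing. Of the 16 genes in this list, 9 were tested and 1 was called. The tested genes include IL1RL1, ACKR3 and OSMR, which are related receptors known mainly for other ligands. IL1RAP, the co-receptor needed for IL-1 signalling, rose from 72.4 and 69.9 CPM in SCR to 109 and 88.8 CPM in siTLN1 (log2 fold change 0.48, adjusted p = 0.0132), and without siTLN1 library a this was 0.32 (adjusted p = 0.277). IL1R1, the binding chain, was at 95.7 and 79.1 CPM in SCR and 73.3 and 64.4 CPM in siTLN1 (-0.34, adjusted p = 0.0764). IL6ST (gp130) was at 868 and 687 CPM in SCR and 632 and 509 CPM in siTLN1 (-0.45, adjusted p = 0.0664).

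The ligand-binding chains that pair with gp130 were each measured. IL6R was at 1.16 and 1.12 CPM in SCR and 0.440 and 0.638 CPM in siTLN1 (-1.05, adjusted p = 0.0616). IL11RA was at 5.10 and 6.14 CPM in SCR and 7.39 and 7.41 CPM in siTLN1 (0.39, adjusted p = 0.138), and 17.4% of its exon bases are shared with other genes on its strand. LIFR, at 76.0 to 105 CPM, and OSMR, at 256 to 293 CPM, had overlapping groups (0.095 and 0.070, adjusted p = 0.786 and 0.761). The decoy-type receptor ACKR3 (0.69, adjusted p = 0.118) and the IL-33 receptor IL1RL1 (0.86, adjusted p = 0.310) were at most 2.01 CPM. CXCR1 and CXCR2, which bind CXCL8, CCR2, which binds CCL2, and ACKR1 had no count in any library.

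The receptors are 1 of 13 lists of pathway genes, holding 184 genes beyond the 10, that were read from the same fit. Of the 135 that were tested, 14 were called (10.4%, against 6.07% of all tested genes), 11 lower and 3 higher, with a median log2 fold change of -0.084. The lists overlap in function with the 10 genes and were chosen with earlier results known. Each of the 14 missed the threshold with at least 1 library left out, 11 of them without siTLN1 library a, where 4 pathway genes passed in all. None of the 14 changed direction.

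Among NF-kB subunits and inhibitors, 4 of 15 fell, and 13 of the 15 were negative with a median of -0.23. TNIP1, an adaptor that restrains NF-kB signalling, was at 113 and 122 CPM in SCR and 81.5 and 90.8 CPM in siTLN1 (-0.44, adjusted p = 0.0108). NFKBIA, which encodes the inhibitor IkB-alpha and is itself an NF-kB target, was at 41.6 and 43.8 CPM in SCR and 30.0 and 32.5 CPM in siTLN1 (-0.45, adjusted p = 0.0123). NFKB2, the p100/p52 subunit of the non-canonical pathway, was at 59.0 and 65.8 CPM in SCR and 44.3 and 47.3 CPM in siTLN1 (-0.45, adjusted p = 0.0123). RELB, its partner subunit, was the remaining call (-0.51, adjusted p = 0.0131) and is named after its values were seen. Groups did not overlap in 48.4% of all tested genes, and all 4 called genes here had siTLN1 values under both SCR values. Their folds were smaller than those of CXCL8 and IL1B, and without siTLN1 library a they ran from -0.42 to -0.37 with adjusted p of 0.188 to 0.209. RELA, the main activating subunit, was at 110 and 116 CPM in SCR and 99.5 and 102 CPM in siTLN1 and was not called; it too is named after its values were seen.

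**Figure D5:**
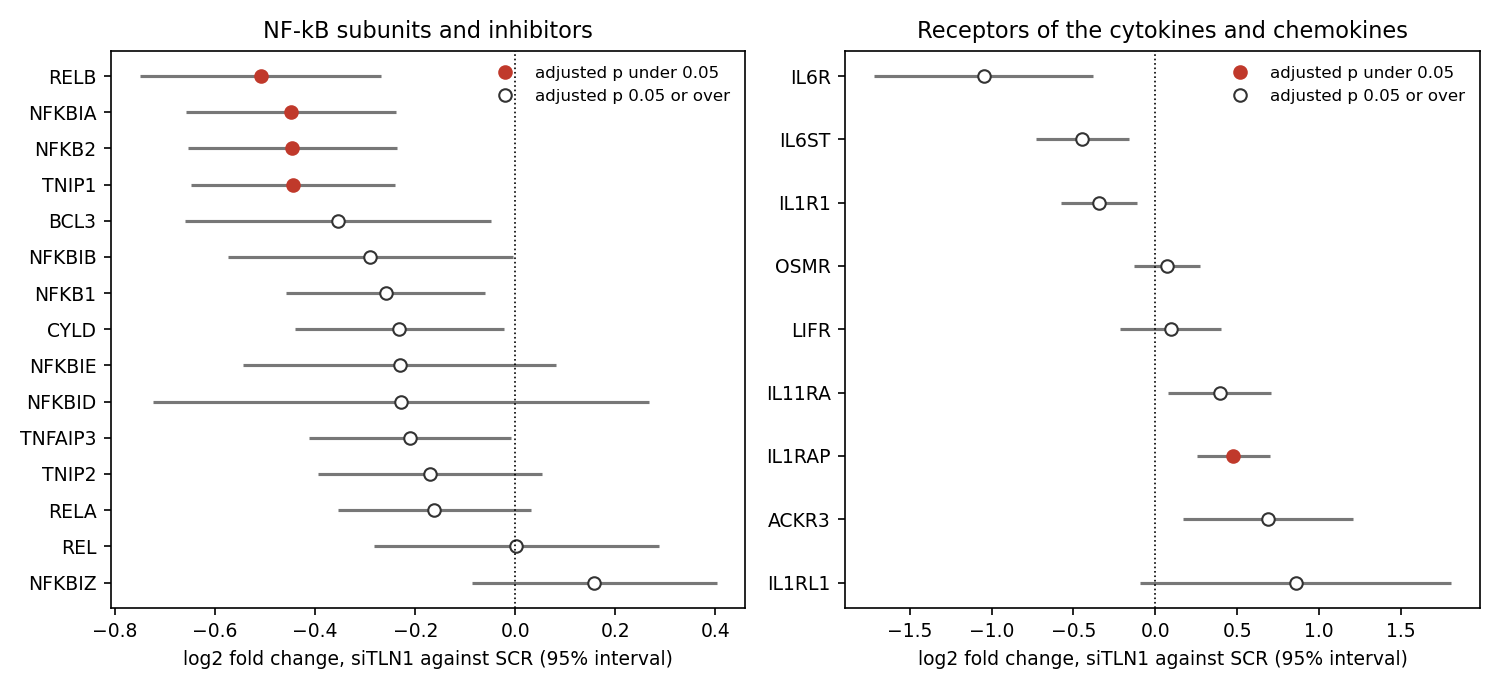
Log2 fold change of siTLN1 against SCR with 95% interval for the 15 tested NF-kB subunits and inhibitors (left) and the 9 tested receptors (right), filled where the adjusted p is under 0.05. RELB, NFKBIA, NFKB2 and TNIP1 are filled on the left, and IL1RAP on the right; the horizontal scales differ.

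In the list of IL-1, Toll-like receptor and related signalling to NF-kB, 2 of 20 tested genes fell. MAP3K14 (NIK), the kinase of the non-canonical NF-kB pathway, was at 31.3 and 27.0 CPM in SCR and 20.7 and 17.2 CPM in siTLN1 (-0.62, adjusted p = 0.00474), and 15.1% of its exon bases overlap an antisense gene. TLR4, the receptor for lipopolysaccharide, was at 56.1 and 54.0 CPM in SCR and 38.5 and 40.4 CPM in siTLN1 (-0.48, adjusted p = 0.00609). Other NF-kB targets went both ways, with 1 of 15 lower and 2 higher. ICAM1, a leukocyte adhesion ligand, was at 34.2 and 33 CPM in SCR and 24.4 and 20.9 CPM in siTLN1 (-0.57, adjusted p = 0.00390), with 25.4% of its exon bases shared with antisense genes. PLAU, which encodes the protease urokinase, rose. It was at 385 and 379 CPM in SCR and 487 and 518 CPM in siTLN1 (0.40, adjusted p = 0.0188), with 31.1% of its exon bases shared with an opposite-strand gene.

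Downstream of gp130, 2 of 20 genes of JAK-STAT3 signalling fell. SOCS3, a STAT3-induced feedback inhibitor, was at 38.5 and 40.7 CPM in SCR and 29.4 and 31.2 CPM in siTLN1 (-0.38, adjusted p = 0.0283; 0.0716 with no filter on low counts). STAT3 itself was at 133 to 142 CPM in all libraries (0.061), and is named after its values were seen. Among factors that bind AU-rich elements or control mRNA decay, 1 of 17 was called: MAPK14, the p38-alpha kinase that is known to stabilise cytokine mRNAs, was at 94.6 and 87.0 CPM in SCR and 63.2 and 67.8 CPM in siTLN1 (-0.47, adjusted p = 0.00686). IL32 was the call among 11 tested colony-stimulating factors, TNF family members and other cytokines (-0.36, adjusted p = 0.0343; 0.0867 with no filter on low counts), and TNF, at 7 to 13 counts in a library, was not tested. Of the 16 tested genes of cytokine processing and release, 0 were called by edgeR and 1 by DESeq2, and 3 had an unadjusted p under 0.05. ANXA2, the gene of that list with the highest mean CPM, was at 1199 to 1375 CPM. CXCL12, the ligand of CXCR4, was at 268 and 289 CPM in SCR and 222 and 251 CPM in siTLN1 (-0.24, adjusted p = 0.180).

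The 3′ UTRs were read from GENCODE 29, in the transcript of each gene with the longest coding sequence. The AU-rich pentamer ATTTA was present in all 10 genes, from 1 copy in CCL2 to 10 in CXCL2, with 9 in CXCL8 and IL11, 7 in LIF and 6 in IL6 and IL1B. The median over 11954 tested protein-coding genes was 2. Per kilobase of 3′ UTR the 10 genes ran from 2.18 copies in LIF to 14.0 in IL6, with 2.66 in CCL2, against a median of 1.72. The longer word TATTTAT was present in 9 of the 10, all but CCL2, and in 33.8% of those genes. CXCL8 and IL11, each with 9 copies of ATTTA, had log2 fold changes of -1.21 and 0.48. The word GACAACA was searched because it was known from earlier results of these data to go with lower siTLN1 values. The contrast that follows is therefore a description and no test. The 940 genes with the word in the 3′ UTR had a median log2 fold change of -0.098 and 16.8% called lower. For the 11014 genes without it these were 0.014 and 3.50%. The word was present in the 3′ UTR or coding sequence of 0 of the 10 cytokine and chemokine genes. Of the 11954 genes, 7.86% hold it in the 3′ UTR and 22.4% in either. Coding sequences of the 10 run from 300 to 816 bases. Their 3′ UTRs run from 376 bases (CCL2) to 3204 (LIF), against a median of 1121.5 over the 11954. Short sequences leave fewer places for a word, and whether 0 of 10 differs from these shares was not tested. Of the called pathway genes named above, the 3′ UTRs of MAPK14 and TLR4 and the coding sequence of MAP3K14 hold the word. The called mesenchymal markers hold it too, CDH2 in its 3′ UTR and coding sequence and SPARC in its coding sequence.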

How the data were processed

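The authors deposited raw counts per gene, obtained from read pairs by featureCounts 2.0.0 over GENCODE 33 genes (GRCh38), per the file headers. Strand was ignored in that call, whereas the libraries keep it, per the labels' protocols. Alignment used STAR 2.7.9a, per the submitters' processing notes. Exon length is another column of the deposited count table. The authors also deposited log2 CPM values for 16137 genes; 100% of them equal edgeR's TMM-scaled log2 CPM within 1e-06 when sorted within groups. The count columns name the group and numbers that match no label, so by name libraries were mapped to groups only. By value, library a matches replicate 1 of the deposited log2 CPM and library b replicate 2. IL6, for example, was deposited at 5.75 and 5.97 in SCR and 5.00 and 5.41 in siTLN1, in replicate order. No column was left unmapped (0), and 0 entries named no gene.

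The comparison used edgeR 4.0.16 under R 4.3.3: filterByExpr (minimum count 10, total 15), TMM, robust glmQLFit and glmQLFTest, with Benjamini-Hochberg adjustment over all 16137 tested genes and a threshold of 0.05. TMM factors scale all CPM values, and each SD is over 2 libraries. A permutation of single values over 2 against 2 libraries cannot go below p = 0.333, so none is given. The biological coefficient of variation was 0.0805.

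The 10 genes, the lists around them and the naming rule were chosen with earlier results of these data known. Named are TLN1, the 10 genes, all tested receptors, up to 3 called genes of smallest p in each list (otherwise the most abundant), and the 3 genes nearest to CXCL8. Of 225 listed genes, 224 were matched. Of the genes this rule selects, some are not reported here. Genes named outside this rule are said to be, or serve as levels of a ligand, marker or overlapping gene. Alternatives were scaling by RLE or by total counts alone, dropping the filter or setting it at a mean of 10 counts, edgeR in its legacy mode, DESeq2 1.42.0, limma 3.58.1 (voom, and trend on the deposited values), RPKM for TPM, each library left out, and a replicate block. The scripts were tested on simulated data. Figures were drawn with matplotlib 3.10.9.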

Additional observations from a re-analysis of the deposited data

How the results depend on the processing

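With all libraries and no block, CXCL8, IL1B and IL6 passed under each of the 8 other scalings, filters and tests, and TLN1 too. Of 71 values of the 9 tested genes (DESeq2 gave no adjusted p for CXCL2), 68 kept direction and side of the threshold, IL11 passed in 2, and LIF changed sign to 0.0059 without a filter. Genes past the threshold numbered 663 to 1253 in these settings, and the ranks by TPM and RPKM were the same. Leaving out 1 library assumes that the lone library varies like the other group. It gave 324 to 1100 genes past the threshold, 3 to 5 of the 10 genes and 4 to 15 pathway genes. LIF ran from -0.048 to 0.037, CXCL2 from -0.84 to 0.31, CXCL3 from -0.82 to 0.20 and CCL2 from -1.0 to 0.11. Positive values were 0.035 (CXCL2), 0.20 (CXCL3) and 0.037 (LIF) without SCR library b, and 0.31 (CXCL2), 0.11 (CCL2) and 0.021 (LIF) without siTLN1 library a. The cause was not tested. A replicate block, on the replicate number of the deposited log2 CPM (limma-trend) or on the count column number (edgeR), gave 3645 or 3709 genes, 6 or 5 of the 10 genes (IL11, higher, and IL1A, lower, were added in both, and CCL2, lower, in the first), and 51 or 52 pathway genes. Both numberings group the libraries alike, so the fits differ in method and not in block. Same-numbered libraries deviated together with r = 0.19 over all tested genes and 0.54 over genes of at least 5 CPM. This hint from 2 pairs does not establish pairing. The number of libraries limits precision for CXCL8, IL6, IL11 and LIF, and depth limits CXCL1.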
